A study of Mus musculus with 6 samples.

Results

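The genes described are the receptors of the Notch pathway, Notch1, Notch2, Notch3 and Notch4, and the ligands Jag1, Jag2, Dll1 and Dll4. They were taken by name, as receptor and ligand genes of the family, and all 8 were found among the 49548 genes of the deposited table. Earlier results of these data were known when this list was chosen. The cells came from colonic adenomas of C57/BL6 mice carrying Col6a1-cre and the Rosa26-mTmG reporter, in which Cre switches a cell and its descendants from Tomato to GFP, after tumour induction with AOM/DSS (a carcinogen followed by a colitis-inducing agent). Lineage-negative cells, depleted of CD45+, EpCAM+, CD31+ and Ter119+ cells, were sorted into Col6a1+ (GFP+) and Col6a1− (Tomato+) cancer-associated fibroblasts (CAFs). Both groups therefore share genotype, strain and treatment and differ by reporter colour, with 3 libraries each, and each sample pooled the tumours of several mice. GFP records past or present activity of the Col6a1 driver, so Tomato+ cells are those in which Cre had not acted, and no untreated or cultured cells enter the comparison.

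Notch receptors are read by ligands on a neighbouring cell. Ligand binding lets ADAM proteases and then gamma-secretase cut the receptor, and the released intracellular domain joins RBPJ and a Mastermind protein in the nucleus to switch on Hes, Hey and Nrarp genes. In blood vessels, Notch3 is the receptor of pericytes and smooth muscle cells and is engaged by Jag1, Notch4 and Dll4 are best known from endothelium, and in the colonic crypt Notch1 and Notch2 in epithelial progenitors answer to Dll1 and Dll4.

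Expression was measured by QuantSeq, which counts reads from the 3′ end of polyadenylated RNA, and values are given as normalized counts, that is, read counts divided by the authors' size factor of the library. Summed normalized counts were 3039152 to 3425249 per library. The number of genes with at least 1 normalized count was 14530 in Col6a1+ replicate 1 and 18770 to 20511 in the other 5 libraries. Markers were called higher or lower at an adjusted p under 0.05 in limma's moderated test, described below. Of all genes tested, 2.66% were called higher and 1.96% lower. Of 9 pericyte markers 9 were called higher in Col6a1+ CAFs, and their summed counts were 38670 to 86622 there against 1107 to 2001. The smooth muscle list had 7 of 8 called higher, with sums of 12647 to 25333 against 496 to 2323. Of 9 fibroblast markers 4 were called higher and 1 lower, with sums of 37611 to 41399 against 7139 to 14182. Fibroblast markers were thus detected in both populations. Epithelial markers were called lower in Col6a1+ CAFs for 9 of 12, with sums of 5391 to 5667 against 18919 to 31024. By direction alone, 8 of 8 smooth muscle, 7 of 9 fibroblast and 0 of 12 epithelial markers had a positive log2 fold change towards Col6a1+ CAFs. As these are bulk samples, fewer cells of a type and less RNA per cell cannot be told apart, and the part of other cell types in the differences below was not tested.

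Notch3 and Jag1 were the 2 of 8 receptors and ligands that were significantly higher in Col6a1+ CAFs. Calls required an adjusted p under 0.05 in limma's moderated test, run on the 26402 genes whose counts were not 0 in all 6 libraries, and 2.66% of all genes tested were called higher. None of the 8 was called lower, against 1.96% of all genes. At an unadjusted p under 0.05, 0 of the 8 were lower by limma, whereas 3 were higher (Notch2, Notch3 and Jag1), against 6.63% of all genes. The share of all genes that were lower at this level was not taken. Limma-voom called none of the 8 lower after adjustment. At the unadjusted level, however, limma-voom had Dll4 lower (log2 fold change −2.56), beside the same 3 genes higher. The 3 libraries of one population lay above the 3 of the other without overlap for Notch2, Notch3, Notch4 and Jag1 on the Col6a1+ side, 4 of 8 against 7.91% of all genes, and for Dll4 on the Col6a1− side, 1 of 8 against 11.6%. The median log2 fold change (Col6a1+ over Col6a1−, on the scale of log2(normalized count + 1)) was 1.07 over the 8 genes, 1.28 over the receptors and −0.43 over the ligands, beside −0.27 over all genes tested.

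**Figure D1:**
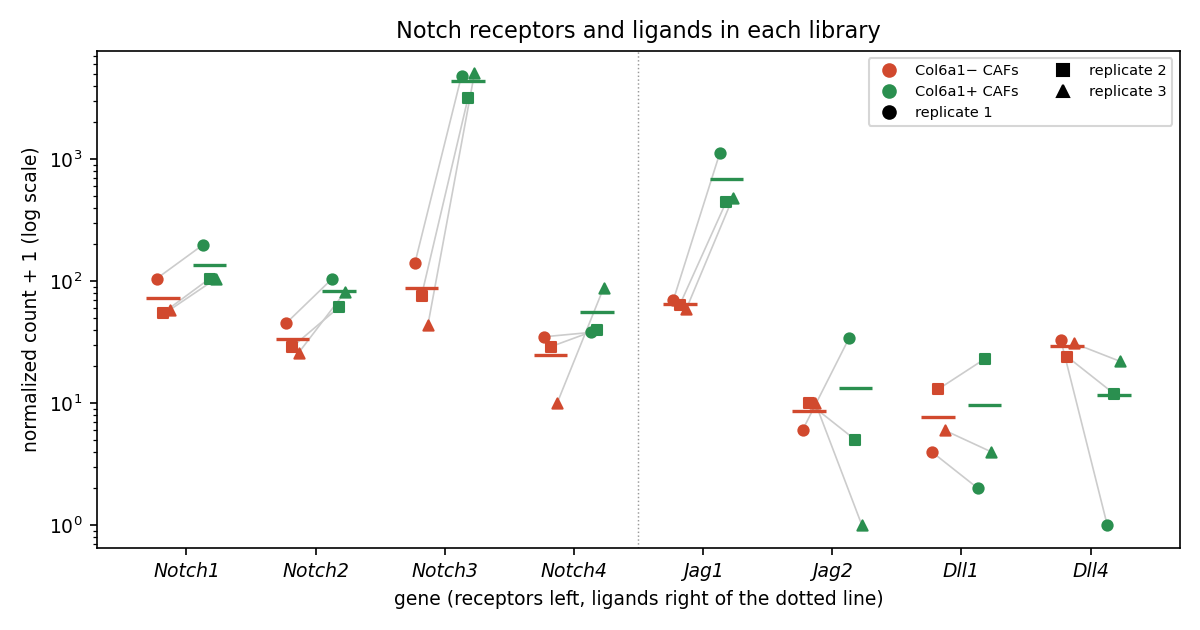
Normalized count plus 1 (log axis) of each receptor and ligand in each library. Red points are Col6a1− and green points Col6a1+ CAFs, the point's shape is the replicate number, grey lines join libraries of the same number and short bars are group means (plus 1). Notch3 and Jag1 are the genes whose green points stand farthest above the red ones, with means of 4340 against 86.3 and 682 against 63.3 normalized counts, and Dll4 is the gene whose green points all lie below the red ones.

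Notch3, the receptor of vascular mural cells, lies on chromosome 17 (mm10, chr17:32120820-32166880, minus strand, ENSMUSG00000038146). It had 4826, 3159 and 5036 normalized counts in Col6a1+ replicates 1, 2 and 3, and 141, 75 and 43 in Col6a1− replicates 1, 2 and 3. Every Col6a1+ library was above every Col6a1− library by more than an order of magnitude. The means were 4340 ± 1028 and 86.3 ± 49.97 (SD, n = 3), a ratio of 50.3, and the log2 fold change was 5.77 (SE 0.42, 95% interval 4.85 to 6.69, limma adjusted p = 0.000197). Among the 26402 genes tested, Notch3 ranked 21 by log2 fold change towards Col6a1+ CAFs and 6 by p. The differences between libraries of the same replicate number were 5.09, 5.38 and 6.84 on the log2 scale.

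Jag1, a ligand that signals to Notch receptors of adjacent cells, lies on chromosome 2 (chr2:137081456-137116644, minus strand, ENSMUSG00000027276). Its normalized counts were 1121, 447 and 478 in Col6a1+ CAFs and 69, 63 and 58 in Col6a1− CAFs. Replicate 1 was the highest Col6a1+ library, the Col6a1− libraries lay close together, and the groups did not overlap. The means were 682 ± 380.5 and 63.3 ± 5.51 (SD, n = 3), a ratio of 10.8, and the log2 fold change was 3.28 (SE 0.40, 95% interval 2.40 to 4.16, limma adjusted p = 0.00190). Without Col6a1+ replicate 1 the log2 fold change was 2.85.

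The calls of both genes depended on the fit. With the replicate number as a block over all 26402 genes, no gene of the table was called, and Notch3 and Jag1 both had the smallest adjusted p, 0.0612, shared by 270 genes, while 4 of the 8 members had an unadjusted p under 0.05 (Notch1, Notch2, Notch3 and Jag1, all higher), where 7.01% of all genes were higher at that level. Restricted to 13515 genes averaging 10 or more normalized counts, the same blocked fit gave limma adjusted p = 5.24e-04 for Notch3 and 0.00174 for Jag1, the 2 called of 7 members that passed this filter, where 7.26% of genes were called higher. With 1 library left out, Notch3 was called in 6 of 6 fits and Jag1 in 4 of 6, since its limma adjusted p was 0.0749 or 0.0623 when Col6a1− replicate 1 or 3 was left out.

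The sequences around the start sites of Notch3 and Jag1 are shown because these were the receptor and the ligand that were called, and that of Hey2, a Notch target, for comparison. Each is the RefSeq window from 250 bases before to 50 bases after the start site, read on the gene's own strand (GRCm38.p6, the assembly of mm10), at chr17:32166841-32167140, chr2:137116471-137116770 and chr10:30842734-30843033, all on the minus strand. Capitals mark the core of the RBPJ binding motif, TGGGAA, searched on both strands and so also found as its reverse complement.
Notch3: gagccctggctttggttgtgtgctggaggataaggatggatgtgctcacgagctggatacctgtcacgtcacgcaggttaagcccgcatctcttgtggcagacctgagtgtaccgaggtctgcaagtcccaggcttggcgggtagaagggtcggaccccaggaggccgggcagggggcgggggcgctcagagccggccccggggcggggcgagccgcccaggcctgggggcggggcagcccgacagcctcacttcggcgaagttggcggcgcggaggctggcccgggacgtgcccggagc
Jag1: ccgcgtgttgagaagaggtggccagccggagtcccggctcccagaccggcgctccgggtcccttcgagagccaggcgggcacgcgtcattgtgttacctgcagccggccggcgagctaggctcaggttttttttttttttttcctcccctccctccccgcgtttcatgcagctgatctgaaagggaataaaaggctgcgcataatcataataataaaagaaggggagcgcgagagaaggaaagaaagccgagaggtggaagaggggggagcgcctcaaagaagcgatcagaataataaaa
Hey2: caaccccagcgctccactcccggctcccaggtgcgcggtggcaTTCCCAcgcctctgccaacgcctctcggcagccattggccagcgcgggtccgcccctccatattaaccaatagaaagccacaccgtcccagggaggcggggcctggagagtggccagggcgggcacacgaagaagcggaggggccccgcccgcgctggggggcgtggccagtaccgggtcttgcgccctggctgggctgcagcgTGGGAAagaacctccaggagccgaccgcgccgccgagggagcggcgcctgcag
The core was not found in the windows of Notch3 and Jag1, nor in any of the 9 windows of the 8 receptors and ligands (Dll1 has 2 windows). In Hey2 it was found 2 times, at −207 and −3 bases from the start site. Of the other targets with a window, Hes5 held it 2 times, at −226 and −82, and Nrarp, which was also called, had none. Over all 32851 promoter windows of the same length, 25.6% hold it, and 6.38% hold the longer form GTGGGAA, whose matches are a subset of those of the core. GC content was 70.0% for Notch3, 55.7% for Jag1 and 72.0% for Hey2, beside a median of 52.7% over all windows, and the windows hold 25, 22 and 29 CpG dinucleotides, beside a median of 7. A match is a description of letters and no match covers this window alone.

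The other receptors had higher means in Col6a1+ CAFs, by factors of 1.89 to 2.53, and none of these differences passed the adjusted threshold. Notch1, the most widely expressed receptor of the family (chr2:26457903-26516663, minus strand, ENSMUSG00000026923), had 198, 104 and 104 normalized counts in Col6a1+ and 104, 54 and 57 in Col6a1− CAFs. The groups met at 104, yet within each replicate number the Col6a1+ library was the higher one, by 0.92, 0.93 and 0.86 on the log2 scale. The means were 135 ± 54.3 and 71.7 ± 28.04 (SD, n = 3), with a log2 fold change of 0.90 (SE 0.44, 95% interval −0.07 to 1.88, limma adjusted p = 0.351, and 0.206 with the block).

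Notch2, which shares much of its structure with Notch1 (chr3:98013527-98150361, plus strand, ENSMUSG00000027878), had 104, 60 and 81 normalized counts in Col6a1+ CAFs and 44, 28 and 25 in Col6a1− CAFs. The lowest Col6a1+ library was above the highest Col6a1− library. The means were 81.7 ± 22.0 and 32.3 ± 10.2 (SD, n = 3), and the log2 fold change was 1.32 (SE 0.48, 95% interval 0.26 to 2.37, limma adjusted p = 0.177). Over the alternative fits its limma adjusted p was 0.0725 to 0.377, under the threshold in none of them. Gm42820, which lies within the Notch2 locus on the same strand, had at most 16 normalized counts in a library.

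Notch4, the receptor best known from endothelium (chr17:34564268-34588503, plus strand, ENSMUSG00000015468), had 37, 39 and 87 normalized counts in Col6a1+ CAFs and 34, 28 and 9 in Col6a1− CAFs. The groups were separated by 37 against 34 alone, and replicate 3 held both the highest and the lowest library. The same-number differences were 0.12, 0.46 and 3.14 on the log2 scale, so most of the mean difference came from replicate 3. The means were 54.3 ± 28.3 and 23.7 ± 13.1 (SD, n = 3), with a log2 fold change of 1.24 (SE 0.66, 95% interval −0.23 to 2.71, limma adjusted p = 0.411). It was 0.68 without Col6a1− replicate 3.

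**Figure D2:**
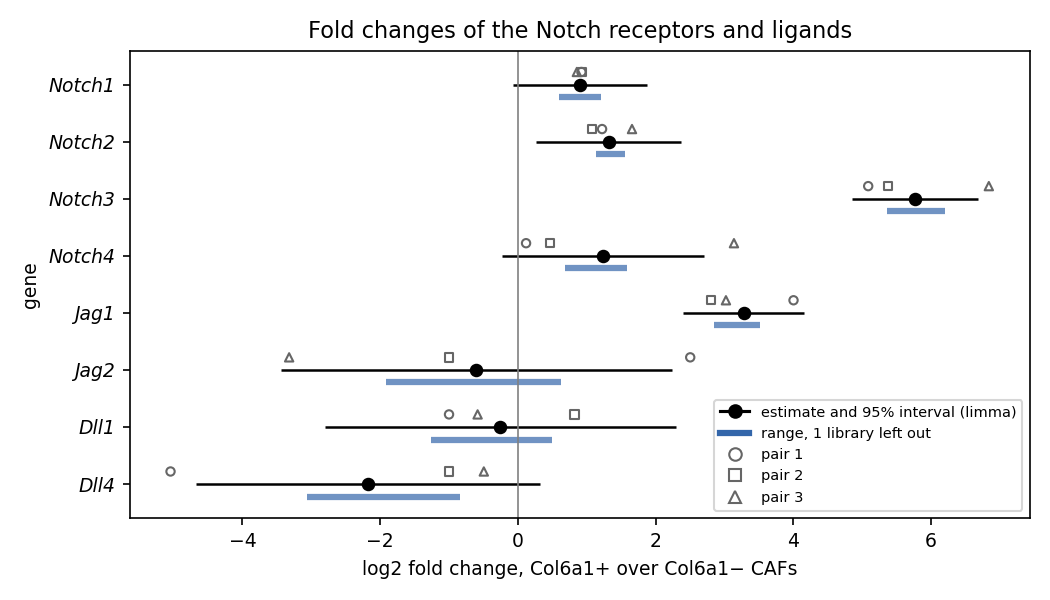
Log2 fold change of each receptor and ligand, Col6a1+ over Col6a1− CAFs. Black points and lines are limma estimates with 95% intervals, blue bars the range of estimates with 1 library left out, and open symbols the differences within each replicate number. The intervals of Notch2, Notch3 and Jag1 lie above 0, and those of Jag2 and Dll1 reach far to both sides of it.

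On the scale of normalized counts, Notch3 took up most of the receptor reads in Col6a1+ CAFs and fewer than the other receptors together in Col6a1− CAFs. The share of Notch3 in the summed normalized counts of Notch1 to Notch4 was 93.4, 94.0 and 94.9% in Col6a1+ and 43.7, 40.5 and 32.1% in Col6a1− CAFs. The means were 94.1 ± 0.728% and 38.8 ± 5.98% (SD, n = 3), 55.3 percentage points apart. A two-sided exact permutation test gave p = 0.1, the smallest value that 3 against 3 libraries allow, and the exact sign-flip test over replicate numbers p = 0.25, also its smallest.

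Per base of the gene-model length in the deposited table, from 2254 for Notch3 to 18648 for Notch4, the Notch3 share was 98.4% against 71.3%. The levels per kilobase, in normalized counts, were 1926 ± 456.3 for Notch3, 15.1 ± 4.06 for Notch2, 13.0 ± 5.22 for Notch1 and 2.91 ± 1.52 for Notch4 in Col6a1+ CAFs (SD, n = 3). In Col6a1− CAFs they were 38.3 ± 22.2 for Notch3, 6.89 ± 2.69 for Notch1, 5.96 ± 1.88 for Notch2 and 1.27 ± 0.6999 for Notch4. On this scale Notch3 was the highest and Notch4 the lowest receptor in every library, and the ranges of Notch1 and Notch2 overlapped in both populations. The table does not define the lengths, and reads from 3′ ends need not scale with them.

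Among the ligands, Jag1 took up most of the reads in both populations, with a larger share in Col6a1+ CAFs. Its share of the summed normalized counts of Jag1, Jag2, Dll1 and Dll4 was 97.1, 92.4 and 95.2% in Col6a1+ CAFs and 63.3, 58.9 and 56.9% in Col6a1− CAFs. The means were 94.9 ± 2.37% and 59.7 ± 3.29% (SD, n = 3), 35.2 percentage points apart, again with an exact permutation p = 0.1 and an exact sign-flip p = 0.25, the smallest possible. Per base of the gene model the shares were 95.5% and 62.8%. The levels per kilobase were 242 ± 135 normalized counts for Jag1 in Col6a1+ CAFs, where those of Jag2, Dll4 and Dll1 were 7.94 ± 11.6, 2.78 ± 2.74 and 1.25 ± 1.67 and overlapped each other (SD, n = 3). In Col6a1− CAFs they were 22.4 ± 1.95 for Jag1, 7.38 ± 1.23 for Dll4, 4.94 ± 1.49 for Jag2 and 0.960 ± 0.680 for Dll1, and no neighbours in this order overlapped, with 5.99 as the lowest Dll4 and 5.80 as the highest Jag2 library. Jag1 was on this scale the highest ligand in all 6 libraries.

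**Figure D3:**
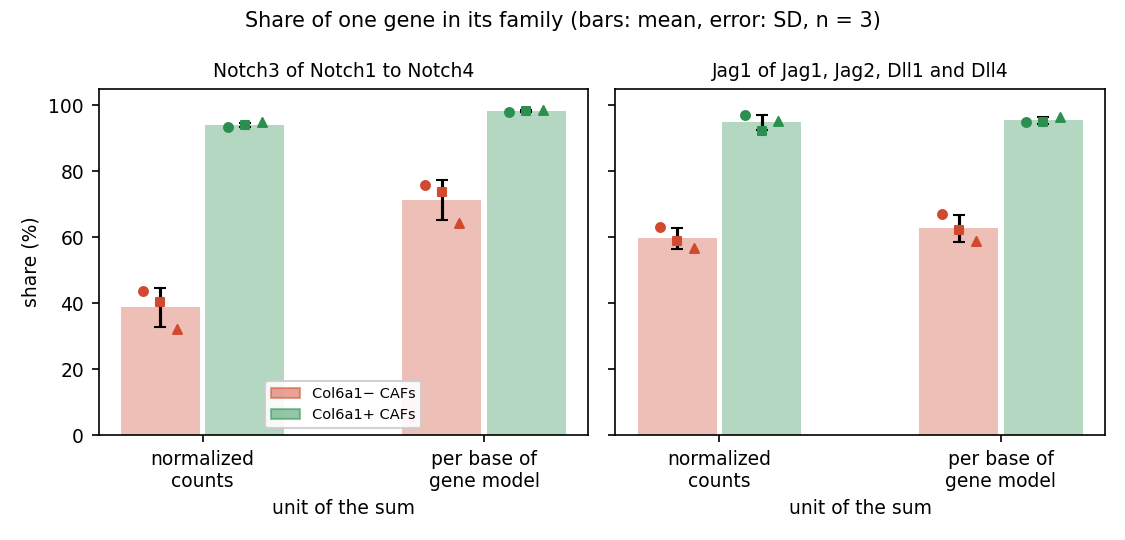
Share (%) of Notch3 among the receptors and of Jag1 among the ligands, in normalized counts and per base of the gene model. Bars are means, error bars SD (n = 3) and points libraries, with the point's shape giving the replicate number, red for Col6a1− and green for Col6a1+ CAFs. The Notch3 share in normalized counts is 94.1% in Col6a1+ and 38.8% in Col6a1− CAFs, and per base the gap narrows from 55.3 to 27.1 percentage points.

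Jag2, Dll1 and Dll4 were measured at no more than 33 normalized counts in any library. Dll4, a ligand of endothelial cells and of crypt epithelium (chr2:119325784-119335962, plus strand, ENSMUSG00000027314), had 0, 11 and 21 normalized counts in Col6a1+ CAFs and 32, 23 and 30 in Col6a1− CAFs. The groups did not overlap, and the library at 0 was Col6a1+ replicate 1, which also had the fewest genes detected. The means were 10.7 ± 10.5 and 28.3 ± 4.73 (SD, n = 3), with a log2 fold change of −2.18 (SE 1.13, 95% interval −4.68 to 0.32, limma adjusted p = 0.389). Without Col6a1+ replicate 1 it was −0.84. Gm14207, on the opposite strand of the Dll4 locus, reached 12 normalized counts in Col6a1− replicate 1, and whether the counting used strand is not given in the sources used here.

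Jag2, the second Jagged ligand (chr12:112908590-112929495, minus strand, ENSMUSG00000002799), had 33, 4 and 0 normalized counts in Col6a1+ CAFs and 5, 9 and 9 in Col6a1− CAFs. The Col6a1− libraries lay inside the range of the Col6a1+ libraries. The mean was higher in Col6a1+ CAFs, 12.3 ± 18.01 against 7.67 ± 2.31 (SD, n = 3), while the log2 fold change had the other sign, −0.61 (SE 1.28, 95% interval −3.45 to 2.23, limma adjusted p = 0.804). It became 0.63 without Col6a1+ replicate 3, so no direction can be given for Jag2.

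Dll1, a Delta ligand that supports Notch activity in crypt progenitors (chr17:15367354-15376872, minus strand, ENSMUSG00000014773), had 1, 22 and 3 normalized counts in Col6a1+ CAFs and 3, 12 and 5 in Col6a1− CAFs. Replicate 2 was the highest library of both groups, and the groups overlapped. The means were 8.67 ± 11.6 and 6.67 ± 4.73 (SD, n = 3), and the log2 fold change was −0.25 (SE 1.15, 95% interval −2.80 to 2.29, limma adjusted p = 0.919). It was 0.50 when Col6a1+ replicate 1 was left out and 0.22 when Col6a1− replicate 2 was. At this depth the intervals of Jag2 and Dll1 admit changes of several fold in either direction.

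Markers of endothelium and epithelium are given beside these ligands because both cell types can express them and both were excluded in the sort. Of 15 endothelial markers 2 were called higher in Col6a1+ CAFs (Esam and Tie1) and 1 lower (Robo4), against 2.66% and 1.96% of all genes. Esam had the most counts, 943, 971 and 1125 against 54, 93 and 38. By library the sums were 1594, 1530 and 2160 in Col6a1+ and 722, 1065 and 958 in Col6a1− CAFs. The Col6a1+ sums were the higher ones, with Esam as their largest part. Most of the list went the other way, as 3 of the 15 log2 fold changes were positive and their median was −1.34. By limma, 3 endothelial markers were higher and 5 were lower at an unadjusted p under 0.05. Of all genes, 6.63% were higher at that level, and the share that were lower was not taken. Limma-voom called 3 endothelial markers higher and 2 lower after adjustment, and the shares of all genes it called were not taken. In Col6a1+ replicate 1, where Dll4 was 0, 8 of the 15 were at 0. Pecam1, which encodes the CD31 of the sort, had 0, 21 and 27 against 13, 64 and 44 normalized counts, and Cdh5 10, 4 and 9 against 39, 24 and 24. Notch4 and Jag1, also made by endothelium, were higher on average in Col6a1+ CAFs. Epcam, the epithelial gene used for exclusion, had 1074, 884 and 615 against 3107, 4129 and 3730, and the 12 epithelial markers held 0.165 to 0.170% of all counts in Col6a1+ and 0.623 to 0.945% in Col6a1− libraries. None of 11 immune markers (sums of 38 to 107 against 135 to 371), 6 glial markers (55 to 73 against 29 to 76) and 5 erythroid markers tested (110 to 1713 against 281 to 482) was called in either direction by limma. At an unadjusted p under 0.05, 4 immune markers were lower, 1 glial marker was higher and 0 erythroid markers differed, beside the same 6.63% of all genes higher. Limma-voom called 1 immune marker lower (Tyrobp) and 1 glial marker higher (Sox10), both named after their values were seen.

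**Figure D4:**
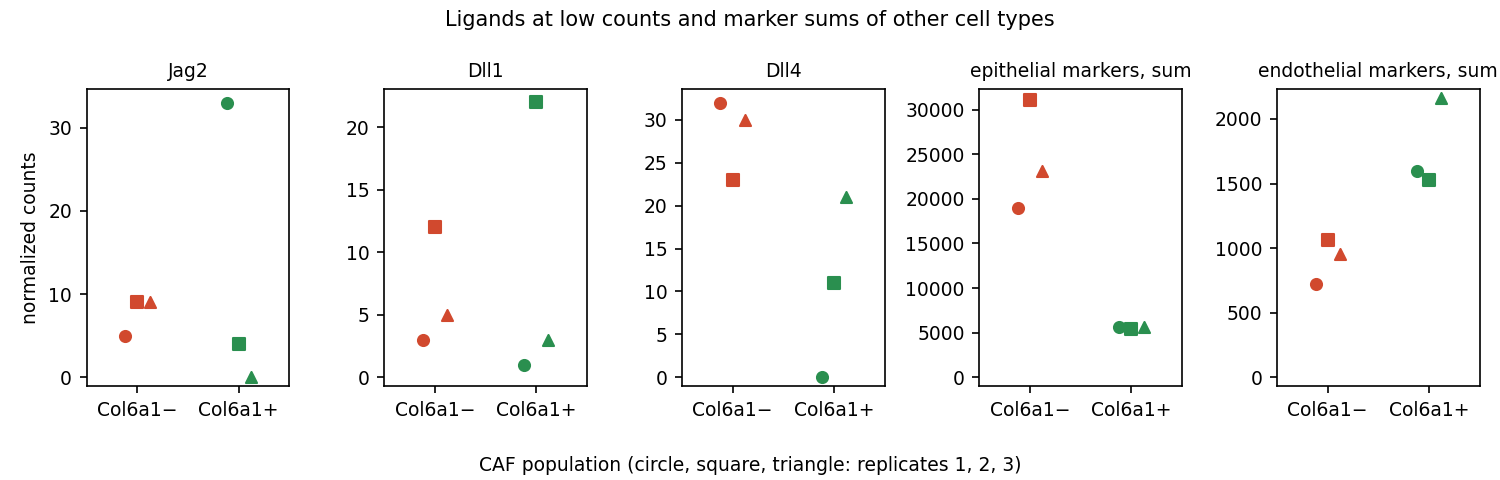
Normalized counts of Jag2, Dll1 and Dll4 in each library, beside the summed counts of 12 epithelial markers and of 15 endothelial markers, each panel on its own linear axis. Red points are Col6a1− and green points Col6a1+ CAFs. All green points lie below all red points for Dll4 and the epithelial sum and above them for the endothelial sum (1530 to 2160 against 722 to 1065), and Jag2 and Dll1 have 1 high Col6a1+ library each, at 33 and 22. Esam is the largest part of the endothelial sum in Col6a1+ CAFs, and 3 of the 15 endothelial markers had a positive log2 fold change.

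For the rest of the pathway a list of 54 genes by role was used, of which 53 were tested (Dll3, a divergent ligand, was at 0 in every library). Of these, 6 were higher and 2 were lower in Col6a1+ CAFs and 45 were not called, beside 4.62% of all genes called in either direction. Their median log2 fold change was 0.14. Without the target genes, 2 were called higher and 2 lower of 47 tested. With the replicate block over all 26402 genes, 0 of the 53 were called (13 had an unadjusted p under 0.05, beside 16.7% of all genes), and in the blocked fit restricted to genes averaging 10 or more normalized counts, limma called 8 of 47, beside 13.7% of all genes in that fit.

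Of the 8 calls, 4 were target genes, and 4 of the 6 targets were called higher in Col6a1+ CAFs. Heyl, a Hey-family repressor, had 534, 229 and 325 normalized counts in Col6a1+ CAFs and 1 in each Col6a1− library, so that its mean was at least 121-fold higher against a floor of 3 counts per library (limma adjusted p = 0.000356, and 0.0612 with the block). Heyl was the one pathway gene outside the receptors and ligands called whichever library was left out. Hey2, a repressor of the same family, had 68, 55 and 71 against 0, 1 and 1, at least 21.6-fold higher against the same floor (limma adjusted p = 0.00641, and 0.0656 with the block). Without Col6a1+ replicate 3, Col6a1− replicate 1 or Col6a1− replicate 3, the adjusted p of Hey2 was 0.058, 0.0643 and 0.0603.

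Nrarp, a feedback inhibitor that binds the Notch nuclear complex, had 298, 227 and 222 normalized counts against 15, 19 and 16. Its libraries were well separated, with a log2 fold change of 3.82 (SE 0.41, limma adjusted p = 0.00125, 0.0612 with the block and 0.0503 without Col6a1− replicate 1). Hey1, the remaining Hey gene, had 64, 65 and 140 against 8, 22 and 10, with a log2 fold change of 2.68 (SE 0.61, limma adjusted p = 0.0342 and 0.122 with the block), and it was not called in any fit that left out 1 library, where the adjusted p was 0.0621 to 0.191. Hes1, the target most used in intestinal epithelium, had 686, 789 and 632 against 558, 429 and 877, overlapping groups with a log2 fold change of 0.23 (SE 0.32, 95% interval −0.47 to 0.94, limma adjusted p = 0.684). Hes5 had 0, 10 and 19 against 0, 1 and 0 and was not called (limma adjusted p = 0.369).

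Ligand endocytosis genes, which act in the sending cell, gave 1 call in each direction and 2 genes without a call. By direction alone, 3 of the 4 log2 fold changes were positive. Of 4 endocytosis genes, Neurl1b, a ubiquitin ligase that promotes uptake of ligands, had 695, 423 and 421 normalized counts in Col6a1+ CAFs and 93, 146 and 86 in Col6a1− CAFs. Its log2 fold change was 2.23 (SE 0.35, limma adjusted p = 0.00640, 0.0765 with the block, and 0.1005 or 0.0921 when Col6a1− replicate 1 or 3 was left out). Neurl1a, its paralogue, had 0, 8 and 3 against 85, 64 and 67 and so was lower, its log2 fold change being −4.46 (SE 0.92, limma adjusted p = 0.0217, 0.113 with the block). Neurl1a was called without Col6a1+ replicate 1 or 2, where the log2 fold change was −3.59 or −5.18, and had an adjusted p of 0.0861 without Col6a1+ replicate 3 and of 0.149, 0.142 and 0.162 without Col6a1− replicates 1, 2 and 3. The 5 glycosylation genes, among them the Fringe enzymes that tune which ligands a receptor answers to, gave no call (0 at an unadjusted p under 0.05 and 0 by limma-voom), and Lfng had 12, 15 and 41 against 13, 35 and 35 (log2 fold change −0.35, limma adjusted p = 0.801).

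Of 10 cleavage genes, Adam10, the protease that makes the first ligand-induced cut, was the one called. It had 106, 110 and 100 normalized counts in Col6a1+ CAFs and 299, 226 and 245 in Col6a1− CAFs, and was lower, by a log2 fold change of −1.27 (SE 0.32, limma adjusted p = 0.0488 and 0.110 with the block). The groups were far apart relative to their spread, yet the adjusted p was 0.0534 to 0.155 when any 1 library was left out.

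Among 10 genes of receptor trafficking and turnover, Dtx3, a Deltex ubiquitin ligase, had 921, 149 and 236 against 65, 38 and 47, with a log2 fold change of 2.68 (SE 0.60, limma adjusted p = 0.0313 and 0.0898 with the block). Col6a1+ replicate 1 was the highest library of Dtx3, as it was of Jag1, and without it the log2 fold change was 1.92 (adjusted p = 0.0514). Dtx3 was called in 1 of the 6 fits that left out a library, that without Col6a1+ replicate 2, and the adjusted p was 0.118 without Col6a1+ replicate 3 and 0.173, 0.208 and 0.2204 without Col6a1− replicates 1, 2 and 3.

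The 7 genes of the nuclear complex, 8 co-repressors and 3 other ligands gave no call by limma. At an unadjusted p under 0.05, 1 nuclear gene, 0 co-repressors and 2 ligands differed. Of all genes, 6.63% were higher at that level, and the share that were lower was not taken. Limma-voom called 1 gene of these 3 roles, the ligand Dner, lower in Col6a1+ CAFs, with 0, 0 and 0 against 2, 16 and 19 normalized counts (adjusted p = 0.00842, limma with trend 0.0894, named after its values were seen). The member of each group with the largest log2 fold change, of those averaging 10 or more normalized counts, was Maml2, a Mastermind co-activator, with 44, 59 and 109 against 17, 24 and 23 (1.59, limma adjusted p = 0.149), Tle2, a Groucho co-repressor, with 21, 18 and 39 against 0, 22 and 15 (1.84, limma adjusted p = 0.508), and Dlk1, a non-canonical ligand, with 133, 52 and 161 against 13, 50 and 34 (1.84, limma adjusted p = 0.144). Maml2 and Dlk1 had no overlap between groups, and Tle2 did. Without Col6a1− replicate 1, its library at 0, the log2 fold change of Tle2 was 0.41.

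**Figure D5:**
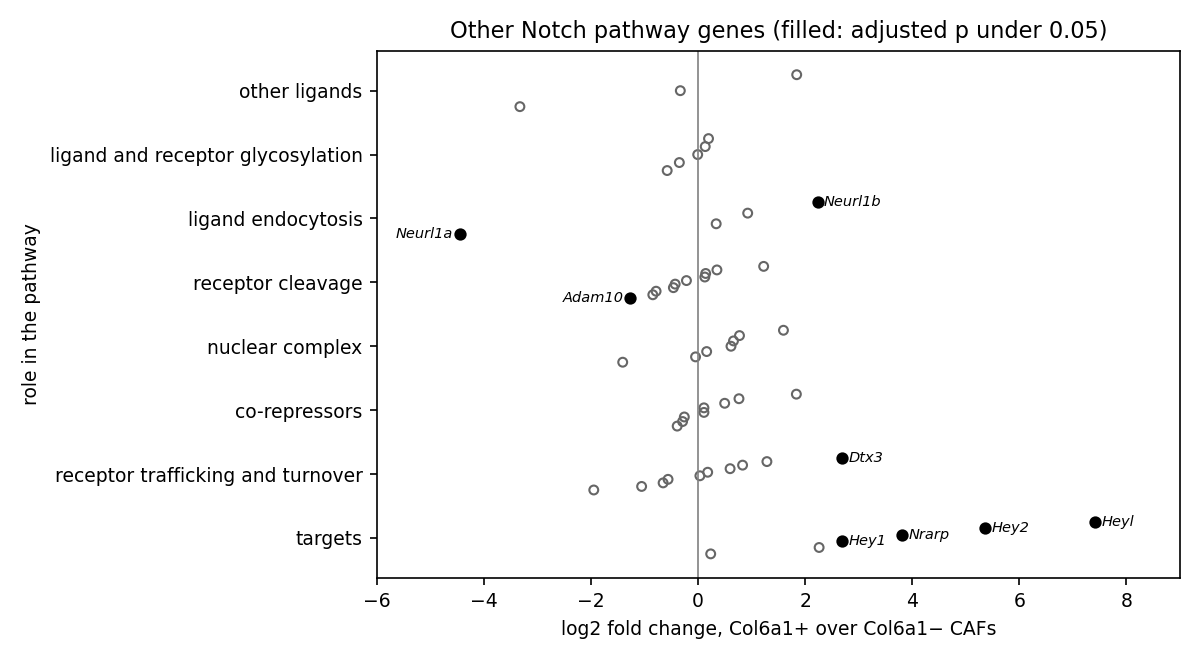
Log2 fold change, Col6a1+ over Col6a1− CAFs, of the 53 other pathway genes tested, by role. Filled points with names are the 8 genes with a limma adjusted p under 0.05 and open points the other 45. The calls on the Col6a1+ side are Neurl1b, Dtx3 and 4 targets, of which Heyl lies farthest to the right, and those on the Col6a1− side are Neurl1a and Adam10.

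The genes whose log2 values followed each receptor or ligand most closely over the 6 libraries were ranked by Pearson's r among 13514 genes averaging 10 or more normalized counts, as a description, since all points share the 6 libraries and their depth. For Notch3 they were Susd2 (r = 0.9995), Rbms2 (0.998) and Pdgfrb (0.997), of which Pdgfrb, a receptor that marks pericytes, had 2084, 1329 and 1612 normalized counts in Col6a1+ and 115, 89 and 58 in Col6a1− CAFs. For Jag1 they were Ptp4a3 (0.999), Sall1 (0.999) and Bmpr2 (0.997), a receptor for bone morphogenetic proteins. Ptp4a3 shared the high first library of Jag1, with 977, 420 and 397 against 75, 61 and 54.

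Among the members without a call, Notch1 was followed by Meox1 (0.996), Tbc1d19 (0.994) and Rbpms (0.994), Notch2 by Fcf1 (0.999), Mgat1 (0.996) and Tpm4 (0.995), and Notch4 by Gm5844 (0.988), Mtmr6 (0.983) and Creb3l1 (0.979). The genes closest to Dll4 were Ing2 (0.999), Cab39l (0.998) and Pggt1b (0.998), each lowest in Col6a1+ replicate 1, and those closest to Jag2 were Alg12 (0.995), Eif2d (0.993) and BC005537 (0.993), each highest in that library. Dll1, with a mean under 10 normalized counts, was not ranked.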

How the data were processed

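RNA of 6 libraries of sorted CAFs, 3 per population, was sequenced from the 3′ end. Groups and replicate numbers follow the labels. Per the processing notes and the study's methods, the authors aligned reads to mm10 with TopHat2 and then Bowtie2, counted them per gene with GenomicRanges and normalized them with DESeq through metaseqR. The deposited table lists, for 49548 genes and per library, a log2 value, log2(normalized count + 1), which is a whole number in 100% of values after the log is undone (tolerance 1e-06), and a second signal column per library, the normalized count per base of a gene model whose definition is not given in the sources used here, which the authors deposited beside it. Its columns of group means, fold changes, p-values and false discovery rates are the authors' own comparison and were not used.

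The log2 values were tested as deposited, so their size factors, pseudocount of 1 and rounding enter every value, and fold changes of low genes are understated. Limma 3.58.1 in R 4.3.3 (2 groups, no block, eBayes with trend) was run on the 26402 genes whose normalized counts summed to at least 1, with Benjamini-Hochberg adjustment over all of them. On simulated data for this comparison (25015 genes), 142 of 200 genes changed 8-fold were recovered (71%) and 1 unchanged gene was called. Shares were compared with exact permutation tests. That each sample pooled the tumours of several mice is given by the study and not by the labels. Both populations were sorted from such tumours, so libraries of the same number may share a pool, which the unblocked fit does not take into account. The limma p-values rest on the spread between these libraries, moderated by that of other genes (prior df 6.48, residual df 4). No p-value here measures the spread between single mice.

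Deviations from the group means were correlated between libraries across 13515 genes averaging at least 10 normalized counts. The correlations were 0.245, 0.125 and 0.144 for libraries of the same replicate number, 1, 2 and 3. Between different numbers they were −0.245 to 0.150, so only replicate number 1 stood above all of these. Libraries of the same number were taken as pairs in an alternative fit.

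The receptors, ligands, pathway genes and marker lists were chosen with earlier results of these data known. Genes named are the 8 members, pathway genes with an adjusted p under 0.05, in roles without one the gene with the largest absolute log2 fold change and a mean of at least 10, the Hes, Hey and Nrarp targets, the 3 closest genes by Pearson's r, and markers that describe their list. Promoter windows are from RefSeq, which had windows for 8 of 8 members and 3 of 6 targets. Alternatives were other scalings, filters, a pseudocount of 0.1, limma-voom, array weights, the replicate block and leaving out each library.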

Additional observations from a re-analysis of the deposited data

How the results depend on the processing

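Notch3 kept its call in 14 of 16 alternative fits and Jag1 in 12 of 16, and both kept their direction in all of these. The number of members called higher, 2 as reported, was 0 without a filter on low values (49548 genes tested, where the limma adjusted p was 0.0570 for Notch3 and 0.0746 for Jag1), 0 with the replicate block, 1 to 2 when 1 library was left out, 3 when calls needed a fold change over 1 on the log2 scale and an unadjusted p under 0.05, and 2 in the remaining alternatives. The number called lower was 0 in each alternative. The 8 other pathway genes called became 2 without a filter, 5 when every library had to reach 10 normalized counts (fewer genes are tested there), 5 with a pseudocount of 0.1, 0 with the replicate block and 1 to 6 with 1 library left out. Where not stated, the cause was not tested. The log2 fold change of Jag2 ranged from −1.92 to 0.63 when 1 library was left out, and that of Dll1 from −1.26 to 0.50 (0.22 without Col6a1− replicate 2), and Dll1 was at 0.12 with array quality weights. With the block no gene of the table was called, so every call of the unblocked fit, those of the marker lists included, was lost. The shares of Notch3 and Jag1 kept their direction in all 8 alternatives run for each. The differences moved by less than the larger of the group SDs, except that of Notch3 per base of the gene model, which was 27.1 percentage points. That of Jag1 per base was 32.7 percentage points. Normalized counts under about 30, as in Jag2, Dll1 and Dll4, limit what these libraries can show.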
